A study of Mus musculus with 6 samples.

Results

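The nuclear oxidative phosphorylation genes were taken as all genes of the deposited table whose symbols name a subunit of complex I (Nduf followed by a, b, c, s or v and a number), complex II (Sdha to Sdhd), complex III (Uqcr), complex IV (Cox4 to Cox8) or complex V (Atp5). Names ending in a pseudogene mark were left out. This gave 84 of 37924 genes, of which 35 belong to complex I, 4 to complex II, 8 to complex III, 19 to complex IV and 18 to complex V. Ndufa4 and Ndufa4l2 were placed in complex IV, where the Ndufa4 protein sits. The symbols chose the members, and no measured value entered the rule. The rule and the roles given to the members below were set with earlier results of these data known. Of the 84, 81 had a mean of at least 0.5 FPKM over the libraries and entered the test. FPKM, fragment number relative to transcript length and library total, is the unit of all levels here, and it allows levels to be compared between genes.

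Transcripts were measured in whole ovaries of mice at postnatal day 14, on the mixed background C57BL/6J/129S7/SvEvBrd. Both groups were homozygous for the same floxed allele, whose gene is not reported here. The control group had no Cre, and the conditional knockout group (cKO) also carried Gdf9-iCre, a recombinase under the promoter of an oocyte gene. Each group had 3 libraries, and each library was a pool of single ovaries from 3 mice, so p-values measure the spread between pools. The comparison asks how ovarian transcripts differ after recombination in oocytes, while granulosa, theca, stromal and blood cells make up much of the tissue and are not cells in which that promoter is known to be active. In such bulk tissue, fewer cells of a type and less RNA per cell cannot be told apart.

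The respiratory chain passes electrons from NADH through complex I, or from succinate through complex II, to ubiquinone, then through complex III and cytochrome c to complex IV, where oxygen is reduced. The proton gradient that this builds drives ATP synthesis by complex V. Most subunits are encoded in the nucleus and a smaller number in mitochondrial DNA, so each complex except complex II is built from both genomes. Growing oocytes rely on their own mitochondria and on pyruvate from granulosa cells, which supply it from glycolysis.

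The labelled tissue was checked against marker genes. Summed FPKM of 6 granulosa cell markers was 2838 to 3596 in control and 1872 to 2247 in cKO, and that of 6 oocyte markers was 566 to 658 and 698 to 1120, so both cell types were present in every library. Estimated depth was 19.6 to 24.9 M fragments (M for 1e6), at which 100 FPKM in a transcript of 500 bases stands for 686 to 872 fragments. Transcripts of the mitochondrial genome took 7.31% of all FPKM in cKO 1 and 10.7% to 14.2% in the other libraries. The neutrophil genes S100a8 and S100a9 measured 219 and 307 FPKM in cKO 3 and below 1 in the other libraries. The numbers in the sample titles of the 3 controls and cKO 1 lie close together and apart from those of cKO 2 and cKO 3, and the labels do not say what these numbers mean.

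In the cKO libraries most of these genes measured slightly lower than in control, and 3 passed the test. The complex I gene Ndufs4 and the complex IV gene Cox7a2 fell, and Cox6b2, a complex IV gene known for its expression in testis, rose. Of the 81 tested genes, 71 had a log2 change below 0, or 87.7%, against 41.5% of all genes tested. The median level was 129 FPKM for the 81 and 10.2 FPKM for all genes tested. The 20 reference genes used to centre libraries in an alternative fit had a median level of 203 FPKM. Of these, 55% were below 0, at a median change of -0.05, and 1 fell. At limma's unadjusted p below 0.05, 4 of the 20 were lower (20%, against 9.8% of all genes) and 3 were higher. The cKO values lay below all controls in 5 of the 20 (25%, against 12% of all genes) and above them in 3. The part of expression level in the changes of the members was not tested. The median change of the 81 was -0.14 with quartiles of -0.23 and -0.06, while the median of all 14934 genes tested was 0.05. Most changes were small. The summed FPKM of the 84 genes in cKO was 89.1% of that in control, while the sum over all genes was 93.2% and the sum over all nuclear genes 96.1%. Under quantile normalisation, and with libraries rescaled without mitochondrial transcripts, the median of the members was -0.09 and 62 of the 81 were below 0.

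In the fit as reported, the share of single genes that passed was close to that of all genes. The 1 increase and 2 decreases (3.7% of 81) stand beside 4.33% of all genes tested, 2.24% higher and 2.09% lower, at an adjusted p below 0.05. The balance over all genes moved with the scaling, from 334 increases and 312 decreases to 254 and 577 with each library centred on its median, 270 and 421 with quantile normalisation and 358 and 548 with a length trend removed. With each library centred on its median 1 member rose and 8 fell, 11.1% of the 81 against 5.56% of all genes. The members' share stayed within 1 percentage point of that of all genes under the other scalings and with the length trend removed. At an unadjusted p below 0.05, 20 of the 81 were lower (24.7%) and 3 were higher, against 9.8% and 14.5% of all genes. The 3 cKO values lay below all 3 control values in 30 of the 81 genes (37%) and above them in 3, against 12% and 18% of all genes. These 33 genes without overlap became 20 with libraries centred on reference genes (24.7%, against 30.7% of all genes) and 52 without cKO 3 (64.2%, against 42.4%). They became 24 (29.6%) under quantile normalisation and when rescaled without mitochondrial transcripts, against 29.4% and 32.3% of all genes. The 3 genes in which the cKO values were all higher were Cox4i2, Cox6b2 and Cox7a1, all of them tissue-restricted complex IV subunits.

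**Figure D1:**
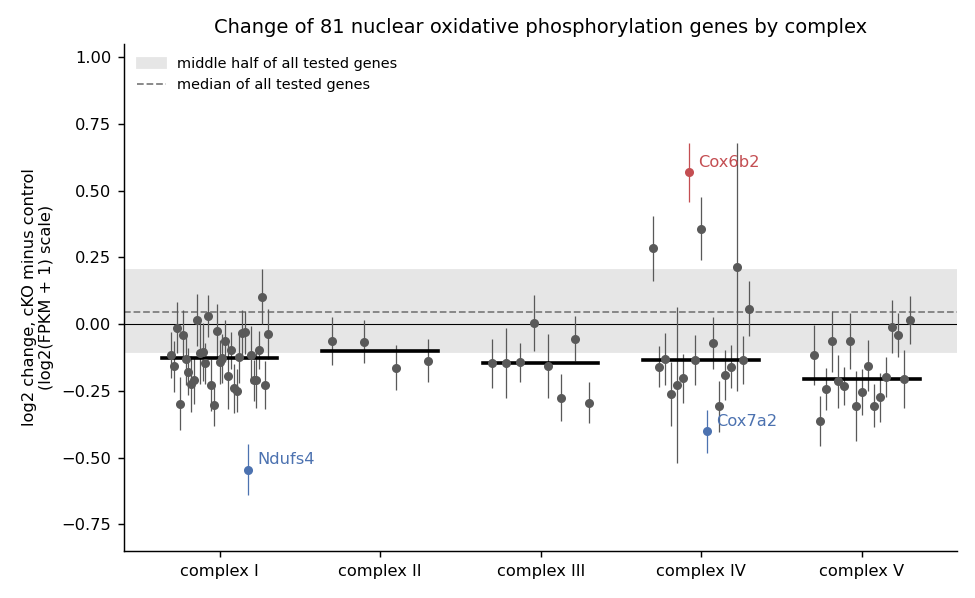
Log2 change (cKO minus control, on the log2(FPKM + 1) scale) of the 81 tested genes, arranged by complex, with standard errors as bars and the median of each complex as a black line. Most points lie below 0 and below the dashed median of all genes tested (0.05, grey band for its quartiles), and the 3 genes that passed the test are named.

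Ndufs4 encodes an accessory subunit of the part of complex I that takes electrons from NADH, and its loss in mice causes a severe brain disease. It lies at chr13:114287795-114388258 on the minus strand (GRCm38). Ndufs4 measured 75.7, 74.4 and 67.1 FPKM in control 1 to 3 and 47.4, 45.5 and 55.4 FPKM in cKO 1 to 3. The groups did not overlap, and the highest cKO value was that of cKO 3. Ndufs4 fell by 0.54 on the log2 scale (standard error 0.10, limma adjusted p = 0.0332), the largest decrease among the 81 genes.

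Cox7a2 encodes the widely expressed form of a small complex IV subunit, at chr9:79755361-79759878 on the minus strand. Its values were 169.8, 173 and 159.6 FPKM in control and 117.5, 126 and 136.5 FPKM in cKO. Every cKO library was lower than every control library. Cox7a2 fell by 0.40 on the log2 scale (standard error 0.08, limma adjusted p = 0.0427).

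Cox6b2 encodes a form of the complex IV subunit that helps join complex IV into dimers on the intermembrane side, and it lies at chr7:4751792-4753094 on the minus strand. It measured 26.4, 28.8 and 35.5 FPKM in control and 45.3, 46 and 43.6 FPKM in cKO. The cKO libraries were close to each other, and control 3 was the highest of the controls. Cox6b2 rose by 0.57 on the log2 scale (standard error 0.11, limma adjusted p = 0.0382). It was one of 6 tested tissue-restricted complex IV genes, which are described with the paralog pairs.

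Each of the 3 calls was lost when certain single libraries were left out. Ndufs4 passed when control 3 or cKO 3 was left out, and not without any of the other 4 libraries (adjusted p = 0.0758 to 0.163). Cox7a2 passed only without cKO 3, with an adjusted p of 0.0559 to 0.205 without each of the others. Cox6b2 passed only without control 3, with 0.0709 to 0.175 otherwise. Over all genes, 0.0335%, 0.0134%, 0.0134% and 0.522% passed without control 1, control 2, cKO 1 and cKO 2. Without control 3 and without cKO 3 the shares were 4.42% and 2.58%. With no filter on low levels, 37924 genes were tested and 0.105% of them passed. None of the 3 did (limma adjusted p = 0.173 to 0.213), and Cox7a2 missed the threshold under quantile normalisation (0.0502). The log2 changes of these 3 genes kept their sign in all of these fits.

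**Figure D2:**
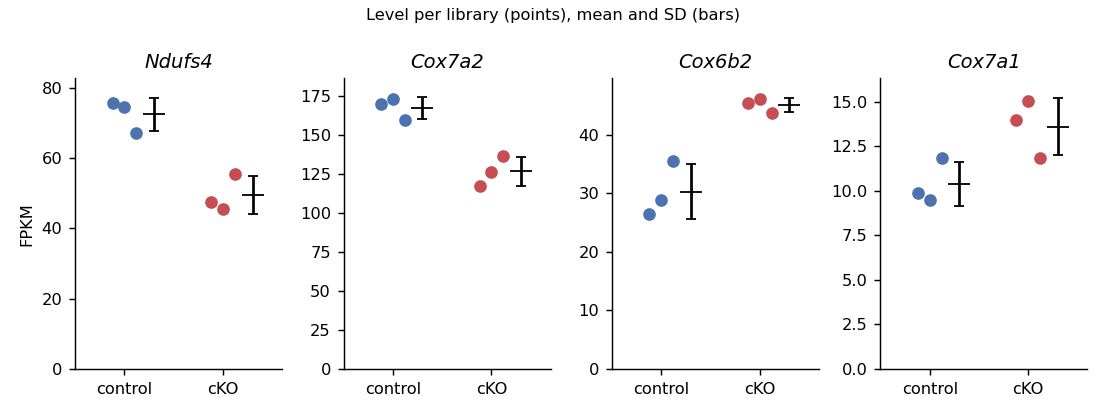
FPKM of the 3 genes that passed the test and of Cox7a1, which did not, with 1 point per library and the mean and SD of 3 libraries per group as bars. The groups do not overlap in any of the 4 panels, and the gap is narrowest for Cox7a1 (11.81 FPKM in control 3, 11.85 in cKO 3).

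The regions around the start sites of the 3 genes that passed are shown because both decreases and the increase come from genes of the same pathway, whose promoters are known for sites of the factors NRF1, GABPA and YY1. Each line runs 5′ to 3′ from 250 bases before to 50 bases after the start in RefSeq on GRCm38.p6, and capitals mark a match to the YY1 core AAGATGGC. All 3 regions lie on the minus strand, at chr13:114388045-114388344, chr9:79759804-79760103 and chr7:4753045-4753344.
Ndufs4: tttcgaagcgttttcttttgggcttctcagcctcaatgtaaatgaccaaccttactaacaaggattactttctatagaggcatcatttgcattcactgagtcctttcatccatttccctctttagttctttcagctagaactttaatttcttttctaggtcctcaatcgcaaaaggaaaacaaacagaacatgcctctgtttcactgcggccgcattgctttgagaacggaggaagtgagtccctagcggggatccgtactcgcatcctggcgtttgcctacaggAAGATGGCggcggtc
Cox7a2: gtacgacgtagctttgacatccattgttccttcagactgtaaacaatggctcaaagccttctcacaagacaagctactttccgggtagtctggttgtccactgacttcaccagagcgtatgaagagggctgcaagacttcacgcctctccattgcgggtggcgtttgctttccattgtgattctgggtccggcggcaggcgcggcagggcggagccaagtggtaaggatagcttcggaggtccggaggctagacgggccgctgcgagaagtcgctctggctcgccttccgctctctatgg
Cox6b2: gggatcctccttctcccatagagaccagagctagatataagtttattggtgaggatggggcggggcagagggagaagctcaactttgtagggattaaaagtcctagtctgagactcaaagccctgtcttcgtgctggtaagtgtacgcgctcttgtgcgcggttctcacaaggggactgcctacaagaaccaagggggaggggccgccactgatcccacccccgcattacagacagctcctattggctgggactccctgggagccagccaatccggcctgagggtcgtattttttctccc
The Ndufs4 region held 1 match to the YY1 core, and the regions of Cox7a2 and Cox6b2 held no match to any of the 3 cores searched on both strands. RefSeq gave 75 such regions for 69 of the 84 genes. The NRF1 core GCGCANGCG was in 28% of these 75 regions, against 6.25% of all 32851 regions and 12.01% of the 14482 regions of tested genes. The YY1 core was in 16% of the 75, against 2.75% of all and 3.99% of the tested. The GABPA core CCGGAAGT was in 6.7%, against 3.89% and 7.32%. A match describes letters only and is not evidence of binding.

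Complex I is the largest complex, with a catalytic core that carries flavin and iron-sulfur clusters and many accessory subunits around it. Of its 35 genes 1 fell, none rose, and 32 had a log2 change below 0. The 1 call is 2.86% of the 35, against 4.33% of all genes tested. The median was -0.13. The cKO values lay below the controls in 12 genes (34.3%) and above them in none, against 12% and 18% of all genes. The counts per complex here and below belong to the fit as reported and are not given for other scalings. The 7 core genes had a median change of -0.10 and the 28 accessory genes one of -0.14. Summed FPKM of the 35 genes was 4080, 4227 and 3855 in control and 3543, 3550 and 3970 in cKO, so that cKO 3 overlapped the controls.

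Among the core subunits, Ndufv1, which binds NADH and the flavin, had the largest positive change of the complex. It measured 70.1, 78.7 and 63.6 FPKM in control and 79.5, 68.7 and 79.7 FPKM in cKO, with a log2 change of 0.10 (standard error 0.10, limma adjusted p = 0.585). Its partner Ndufv2 had values of 118.7, 128.5 and 131.4 FPKM in control and 106.9, 98.2 and 118.2 FPKM in cKO, a change of -0.23. The core subunits Ndufs1, Ndufs3, Ndufs7 and Ndufs8 had changes of -0.21 to -0.03. None of the 7 core genes passed.

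Ndufb3, an accessory subunit of the membrane arm, came next to Ndufs4 among the decreases. Its values were 67.3, 69.3 and 62.4 FPKM in control and 54.5, 50.5 and 55.8 FPKM in cKO, which did not overlap. Its log2 change was -0.30 (standard error 0.08, limma adjusted p = 0.0746). Ndufa3 and Ndufa7, the accessory genes with the highest levels, had means of 311 and 249.7 FPKM in control and 274.5 and 253 FPKM in cKO. Neither passed, at log2 changes of -0.18 and 0.02. Ndufb11, the other accessory gene above 0, measured 138.7, 145.4 and 145 FPKM in control and 144, 137 and 158 FPKM in cKO, and its groups overlapped.

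Complex II is the succinate dehydrogenase of the citric acid cycle, with no subunit from mitochondrial DNA. All 4 of its genes had a log2 change below 0, with a median of -0.10, and none passed limma's test or reached an unadjusted p below 0.05. The catalytic subunits Sdha, which carries the flavin, and Sdhb, which carries the iron-sulfur clusters, had changes of -0.06 and -0.07. Sdhc and Sdhd, which anchor the enzyme in the membrane, had changes of -0.16 and -0.14. Sdhc measured 85.5, 90.8 and 92.1 FPKM in control and 85.3, 72.7 and 81.8 FPKM in cKO. It was the only gene of the 4 whose groups did not overlap (25%, against 12% of all genes with cKO below). The margin between control 1 and cKO 1 was small.

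Complex III passes electrons from ubiquinol to cytochrome c. Of its 8 genes 7 were below 0, with a median of -0.15. None passed limma's test, and 2 were lower at an unadjusted p below 0.05 (25%, against 9.8% of all genes). Uqcrq, a small membrane subunit, measured 194, 187 and 173.6 FPKM in control and 143, 152.6 and 155.5 FPKM in cKO. The groups did not overlap, and the log2 change was -0.29 (standard error 0.08, limma adjusted p = 0.0782). Uqcrfs1, the Rieske iron-sulfur protein, measured 81, 79.6 and 77.8 FPKM in control and 69.2, 58.3 and 69.5 FPKM in cKO, at a log2 change of -0.28 and an adjusted p of 0.115. The core protein genes Uqcrc1 and Uqcrc2 had changes of 0.00 and -0.16. Uqcrh, the hinge protein and the highest of the complex, had means of 418 FPKM in control and 403.5 FPKM in cKO, while Uqcr10, Uqcr11 and Uqcrb had changes of -0.15 to -0.14.

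Complex IV reduces oxygen, and several of its nuclear subunits exist as a widely expressed form and a form restricted to muscle, lung or testis. Of its 19 genes 17 were tested, and 1 rose and 1 fell (11.8%, against 4.33% of all genes). All 10 widely expressed subunits among these genes were below 0, with a median of -0.18. In 6 of them the cKO values lay below all controls (60%, against 12% of all genes). Cox6c, the highest, measured 548, 570.5 and 509 FPKM in control and 463, 480.2 and 541 FPKM in cKO, where cKO 3 overlapped the controls. Cox7b had the largest negative change after Cox7a2. Its values were 112.5, 127 and 131.7 FPKM in control and 91.5, 100.2 and 107.8 FPKM in cKO, with a log2 change of -0.31 (limma adjusted p = 0.106). Cox5a, Cox5b, Cox6a1, Cox6b1, Cox7c, Cox8a and Ndufa4 had changes of -0.26 to -0.13. Cox7a2l, which helps assemble supercomplexes, had a change of -0.07 with overlapping groups.

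The tissue-restricted complex IV genes mostly had log2 changes above 0. Of 8, 6 were tested, 5 of these were above 0, against 8735 of all 14934 genes tested, and their median change was 0.25. Cox8b was 1 of the 5, though its mean FPKM was 0.86 in control and 0.78 in cKO. Ndufa4l2, another, was below 0 under quantile normalisation and with libraries centred on their median (-0.026 and -0.007). Cox7a1, the heart and skeletal muscle form of the Cox7a subunit, measured 9.86, 9.5 and 11.8 FPKM in control and 13.9, 15 and 11.9 FPKM in cKO. The groups were separated by a small margin between control 3 and cKO 3, and the log2 change was 0.36 (standard error 0.12, limma adjusted p = 0.125). Cox4i2, a form known from lung and from low oxygen, measured 5.88, 6.39 and 8.24 FPKM in control and 8.53, 8.37 and 8.51 FPKM in cKO. Its log2 change was 0.28, and its adjusted p was 0.202. Ndufa4l2, a form induced by low oxygen in many cells, had means of 7.26 FPKM in control and 7.57 FPKM in cKO, a change of 0.06.

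The remaining muscle and testis forms were near the lower limit. Cox8b, a muscle form, was listed at 0 in control 1 and control 2 and measured 2.57 FPKM in control 3, while the cKO values were 0.64, 0.88 and 0.81 FPKM. Control 3 alone was high. Cox8b passed the test in the fit without control 3 (limma adjusted p = 0.033), in which both remaining controls are listed at 0. Cox6a2, another muscle form, measured 0.90, 1.59 and 2.78 FPKM in control and 1.89, 1.43 and 0.65 FPKM in cKO, with no separation. The testis forms Cox7b2 and Cox8c stayed at 0.77 FPKM or less in every library and were not tested.

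Since Cox7a1, Cox8b and Cox6a2 are muscle or brown fat genes, markers of those tissues are given beside them. The 8 adipose markers summed to 14.3, 15.1 and 38.9 FPKM in control and to 17.8, 17.4 and 16.2 FPKM in cKO, so control 3 was high. In it Car3 measured 14.7 FPKM and Adipoq 2.67 FPKM, and Ucp1, the defining gene of brown fat, was at 0.07 FPKM or less in every library. Of the 4 adipose markers tested, the lipid droplet gene Plin1 rose and the other 3 were below 0, at a median of -0.78 for the 4. Among them Fabp4, the fatty acid carrier of fat cells, had a log2 change of -1.21 and did not pass (limma adjusted p = 0.089). Of 7 muscle markers in the table, 5 were below the limit for testing and neither of the tested 2 passed. The muscle markers summed to 146 to 191 FPKM in control and 135 to 151 FPKM in cKO, nearly all of it from the troponin gene Tnni3, at 133 to 189.5 FPKM. Myh4, the myosin of fast muscle, was listed at 0 in control 1, control 2 and cKO 1 and reached 0.15 FPKM at most. The part of adipose or muscle tissue in these values was not tested.

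The shares of paralogs did not overlap between the groups for Cox6b, Cox7a and the c ring of complex V. Cox6b2 made up 6.96%, 7.21% and 9.46% of the summed FPKM of Cox6b1 and Cox6b2 in control and 12.9%, 14% and 11.4% in cKO. Cox7a1 made up 5.49%, 5.2% and 6.89% of its sum with Cox7a2 in control and 10.6%, 10.7% and 7.99% in cKO. In neither pair did the groups overlap, and in both cKO 3 was the cKO library nearest to the controls and control 3 the control nearest to cKO. These shares are a description and were not tested. Cox6b2 and Cox7a2 passed as single genes, so the shares of their pairs are not separate results. Of all single genes tested, 30% had groups that did not overlap, and the like figure for shares is not given. The shares of Cox6a2 with Cox6a1, of Cox8b with Cox8a and of Ndufa4l2 with Ndufa4 overlapped between the groups.

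**Figure D3:**
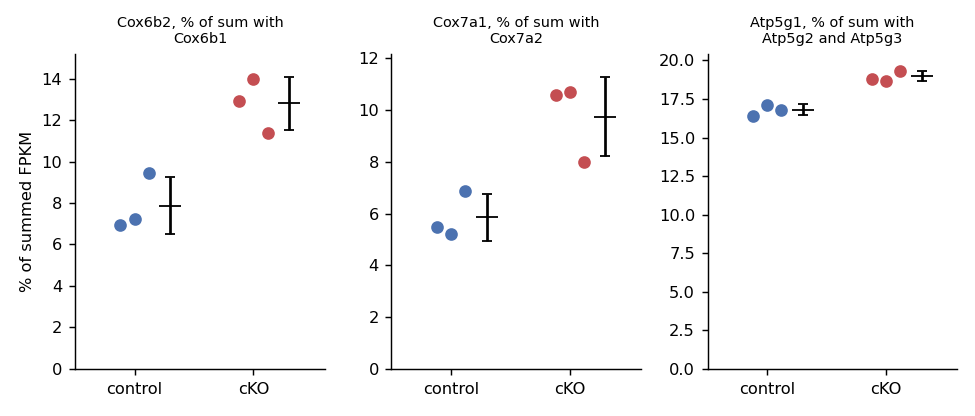
Share (% of summed FPKM) of Cox6b2 in its pair with Cox6b1, of Cox7a1 in its pair with Cox7a2, and of Atp5g1 among the c subunit genes, with 1 point per library and the mean and SD of 3 libraries per group as bars. In each panel every cKO point is above every control point, and the mean share of Atp5g1 is 16.8% in control and 19% in cKO.

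Complex V, the ATP synthase, has a soluble head where ATP is made, a rotating ring of c subunits in the membrane and a stalk that holds the head in place. Of its 18 genes 17 were tested and 16 were below 0. None passed limma's test, and 8 were lower at an unadjusted p below 0.05 (47.1%, against 9.8% of all genes). The median of -0.21 was the lowest of the 5 complexes. In 8 genes the cKO values lay below all controls (47.1%, against 12% of all genes). Summed FPKM was 5111, 5182 and 4808 in control and 4268, 4109 and 4709 in cKO, a mean of 86.7% of control, beside 96.1% for all nuclear genes.

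Atp5b, the catalytic beta subunit, had the highest level of all 84 genes. It measured 770.6, 789.5 and 762 FPKM in control and 607, 543 and 660 FPKM in cKO. The groups did not overlap, and the gene did not pass, with a log2 change of -0.36 (standard error 0.09, limma adjusted p = 0.0759). Atp5b passed with libraries centred on their median or on reference genes, rescaled without mitochondrial transcripts, corrected for length or weighted (limma adjusted p = 0.0333 to 0.0498). It did not pass with pseudocounts of 0.1 or 0.5, a mean FPKM of at least 2, no filter or quantile normalisation (0.0633 to 0.277). Nor did it pass with any 1 library left out. The other head and central stalk genes, Atp5a1, Atp5c1, Atp5d and Atp5e, had changes of -0.24 to -0.06.

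The c ring is made of 1 mature protein encoded by 3 genes that differ in their import sequence. Atp5g1 measured 201, 210.7 and 178.6 FPKM in control and 185.7, 170.3 and 210.8 FPKM in cKO, with overlapping groups and a log2 change of -0.06. Atp5g2 measured 412, 401 and 334 FPKM in control and 299, 270.1 and 361 FPKM in cKO, at -0.31. Atp5g3, the highest of the 3, measured 612.5, 619 and 549 FPKM in control and 502, 468.5 and 520 FPKM in cKO, at -0.25 and without overlap. None of the 3 passed (limma adjusted p = 0.134 to 0.761). Atp5g1 made up 16.4%, 17.1% and 16.8% of their summed FPKM in control and 18.8%, 18.7% and 19.3% in cKO.

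In the peripheral stalk, Atp5j measured 304, 336 and 340.2 FPKM in control and 254, 263.6 and 274 FPKM in cKO. The groups did not overlap, and the log2 change was -0.31 (standard error 0.08, limma adjusted p = 0.0775). Atp5f1, Atp5h and Atp5o had changes of -0.23, -0.16 and -0.04. Among the remaining membrane subunits Atp5j2, Atp5k and Atp5l had changes of -0.28, -0.20 and -0.01. Atp5l2, a copy of the subunit g gene, was listed at 0 in all 6 libraries. Atp5s and Atp5sl, which carry the family name, had low levels of 6.43 and 18.5 FPKM in control and changes of -0.21 and 0.01; the Atp5sl protein is known from complex I assembly.

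**Figure D4:**
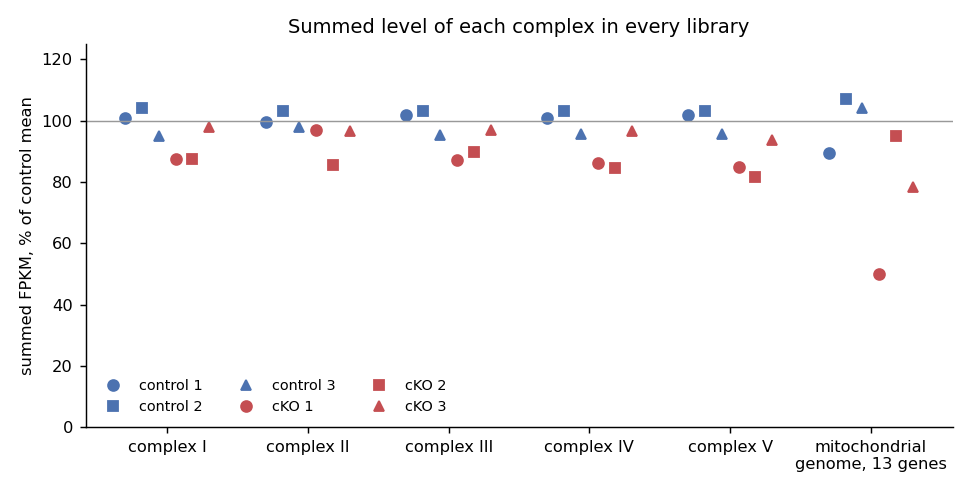
Summed FPKM of each complex in every library, as % of the control mean, with 1 symbol per library, beside the 13 subunit genes of the mitochondrial genome. For the nuclear genes of complexes I and III to V, cKO 1 and cKO 2 lie between 81.6% and 89.7% and cKO 3 between 93.6% and 97.9%, and the mitochondrial genes range from 49.9% in cKO 1 to 107% in control 2. Complex II lies at 97.1%, 85.6% and 96.6% in cKO 1 to 3, so only cKO 2 is that low there. The sum over all nuclear genes, not drawn, was 97.1%, 90.5% and 101% in cKO 1 to 3.

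The 3 cKO libraries differed in how far these genes lay below control. In cKO 1, 60 of the 81 genes (74.1%) were below all 3 controls, in cKO 2, 61 (75.3%), and in cKO 3, 34 (42%). The same shares over all genes tested were 25.6%, 35.9% and 23.5%. The median difference from the control mean was -0.17, -0.21 and -0.04 on the log2 scale, against 0.08, -0.01 and 0.05 for all genes. The lowest value of a gene was in cKO 2 for 42 of the 81 genes, in cKO 1 for 30 and in cKO 3 for 1, or 51.9%, 37% and 1.23%, against 26.3%, 12.1% and 9.68% of all genes. With control 3 and cKO 3 both left out, a choice made after the data were seen, the median was -0.23, and 75 of the 81 genes were below 0. Cox6b2 rose and Ndufs4 fell in that fit, and Cox7a2 had an adjusted p of 0.0523. With the 3 controls against cKO 1 alone, the libraries with adjacent title numbers, the median was -0.17, 68 genes were below 0 and none passed limma's test, with 1 higher and 21 lower at an unadjusted p below 0.05. The lone cKO library was there assumed to vary as the controls did, and for cKO 2 and cKO 3 the title number and the genotype cannot be told apart.

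Cell type markers moved between the same groups. Of the 6 granulosa markers the junction gene Gja1 and the inhibin gene Inha fell, and the sum in cKO was 64.2% of control. Foxl2, the granulosa transcription factor, measured higher in every cKO library than in every control, at a log2 change of 0.43, and did not pass (limma adjusted p = 0.128). Of the 6 oocyte markers the egg coat gene Zp3 rose, and the sum was 144% of control. The growth factor gene Bmp15 and the RNA-binding gene Dazl were below 0, at -0.67 and -0.04, and did not pass. Blood markers summed to 5441, 3366 and 1700 FPKM in control and 1111, 772 and 4122 FPKM in cKO, where control 1 and cKO 3 were highest. Of the 6 stroma and smooth muscle markers Pdgfra and Tcf21 rose, and of 5 tested immune markers the mast cell genes Cpa3 and Mcpt4 rose. No theca or oviduct marker passed limma's test, and 1 of each was higher at an unadjusted p below 0.05. The part of these cell types in the levels of the respiratory genes was not tested.

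Genes that work with the nuclear subunits were measured for comparison. Of 7 further genes of the chain that the symbols do not catch, Cycs, the somatic cytochrome c that carries electrons to complex IV, fell. It measured 66.1, 66.3 and 62 FPKM in control and 42.5, 47.6 and 46.5 FPKM in cKO, with a log2 change of -0.50 (standard error 0.08, limma adjusted p = 0.024). The groups were well separated. The median of the 7 was -0.24. Atpif1, the inhibitor of ATP synthase, had the highest level of them and was the only one above 0, at 0.16 with overlapping groups.

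The 13 subunit genes of the mitochondrial genome had a median change of -0.48, all below 0. None passed limma's test, and 4 were lower at an unadjusted p below 0.05 (30.8%, against 9.8% of all genes). Their spread within cKO was wide: mt-Co1 measured 10580, 13180 and 12130 FPKM in control and 5620, 11430 and 9744 FPKM in cKO, with cKO 1 lowest and the groups overlapping. The order of the cKO libraries thus differed from that of the nuclear genes, where cKO 2 was as low as cKO 1.

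Genes of the mitochondrial ribosome, which makes the mitochondrial subunits, had a median close to that of the nuclear subunits. Of 76 tested, 70 were below 0, the median was -0.14, 2 fell and none rose. The 2 are 2.63% of the 76, against 4.33% of all genes in either direction. Mrpl33 measured 129.4, 138.5 and 116.6 FPKM in control and 79, 86 and 102.4 FPKM in cKO, and Mrpl42 99, 99.8 and 97.2 FPKM in control and 76.1, 74.3 and 82 FPKM in cKO. Both were without overlap, and Mrpl33 fell by 0.52 and Mrpl42 by 0.35 on the log2 scale. Of 46 assembly factors 28 were below 0, with a median of -0.08. Ndufaf2, an assembly factor of complex I, fell by 0.36 on the log2 scale, from a mean of 39 FPKM in control to 30.2 FPKM in cKO (limma adjusted p = 0.0483).

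Other mitochondrial lists had medians nearer to that of all genes, though most of their genes were also below 0. The 17 genes of the citric acid cycle and pyruvate dehydrogenase had a median of -0.06; none passed limma's test, and 1 was lower at an unadjusted p below 0.05. Their highest members Mdh2 and Idh3g, both dehydrogenases of the cycle, had changes of -0.14 and -0.07. For 23 genes of import, chaperones, carriers and membrane dynamics the median was -0.09; none passed limma's test, and 3 were lower at an unadjusted p below 0.05. The phosphate carrier Slc25a3 and the ATP carrier Slc25a5, the highest of them, had changes of -0.08 and -0.18. The 17 tested regulators of mitochondrial genes had a median of -0.02; none passed limma's test, and 1 was lower at an unadjusted p below 0.05. Changes were 0.07 for Tfam, which packs mitochondrial DNA, and -0.10 for the protease Clpp. Below 0 were 13 of the 17 cycle and dehydrogenase genes (76.5%) and 21 of the 23 import, chaperone, carrier and dynamics genes (91.3%). Among the regulators it was 11 of 17 (64.7%), and among all genes tested 41.5%. The shares lower at limma's unadjusted p below 0.05 were 5.88%, 13% and 5.88% in the same order, against 9.8% of all genes. Differences between these lists were not tested.

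**Figure D5:**
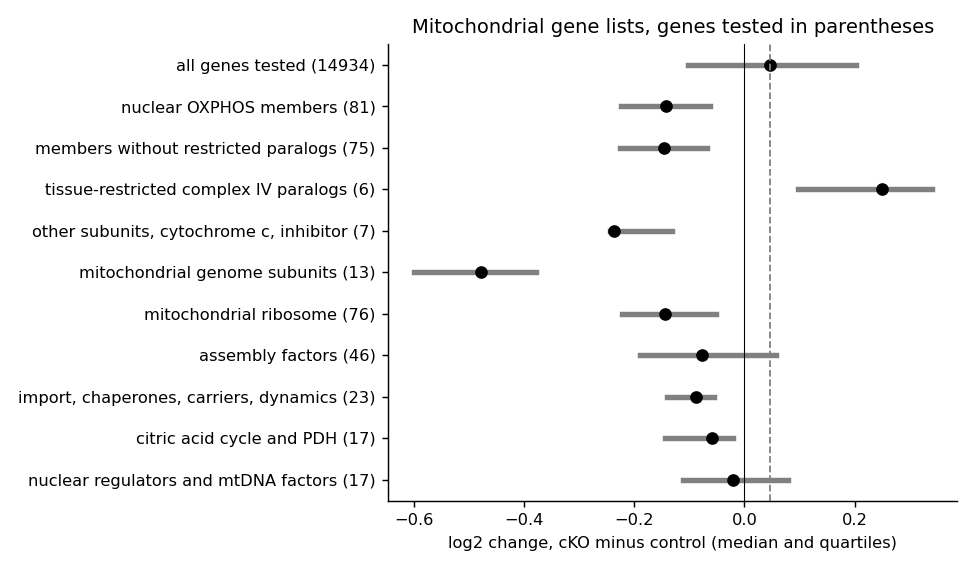
Median (points) and quartiles (bars) of the log2 change, cKO minus control, for the nuclear oxidative phosphorylation genes and other mitochondrial gene lists, with the number of genes tested in parentheses and the dashed line at the median of all genes tested. The tissue-restricted complex IV paralogs lie above that line at 0.25, and the mitochondrial genome subunits are lowest at -0.48.

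Genes with few exon bases had slightly lower changes in all genes, and this was set beside the members. Exon bases were counted over all annotated transcripts of a gene, so the length classes do not match the length of its main transcript. Among all genes tested the median change went from -0.02 for genes with up to 600 bases of exon to 0.07 for those over 4000 bases. The members had medians of -0.12, -0.18, -0.14, -0.16 and -0.09 in the 5 length classes from shortest to longest, which held 5, 16, 30, 20 and 10 of them, below that of all genes in each class. With a length trend removed in each library, 73 of the 81 genes were below 0, the median was -0.14, 1 rose and 4 fell.

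Some members share sequence with other genes. Of the 84, 25 share exon bases with a gene on the opposite strand and 5 with one on the same strand, so their fragments could be split or merged, as the strand setting is not given in the sources used here. Near-identical copies, at 95% identity or more over at least 150 bases, exist for 21 members. Among the copies with a measured level, those of Ndufs5 (BC002163, 15.7 FPKM) and Cox7a2l (Gm6969, 1.6 FPKM) were above 1 FPKM, and those 2 members are uncertain to that extent. Copies of Atp5h, Atp5l, Cox7b, Cox7c and Ndufb3 without a measured level were not used here, so fragments shared with them are unknown. Ndufs4, Cox7a2 and Cox6b2 have neither such overlaps nor such copies.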

How the data were processed

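Ovaries of 3 control and 3 cKO pools were profiled by RNA sequencing, and groups were taken from the genotype label. Library numbers follow the order of deposit and pair nothing. The authors deposited 1 table of gene levels, read here as FPKM from the values and from Cufflinks 2.0, which the submitters' processing notes name with TopHat2 2.0 and the build mm10, without role or order. The annotation, strand setting, filters and scaling are not stated by the labels or the file. With no reads at hand, no count model was fitted.

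Levels were taken as log2(FPKM + 1) for genes that averaged 0.5 FPKM or more across all 6 libraries. cKO was compared with control by limma 3.58.1 in R 4.3.3 (lmFit, eBayes with a trend), with Benjamini-Hochberg adjustment over all 14934 genes tested and a threshold of 0.05. Changes on this scale understate those of low genes. Rose, fell and changed refer to genes that passed. Lists are described by counts and medians, with no test. The fit was checked on simulated data.

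Named members were those that passed, the 2 highest and the 2 most raised and 2 most lowered of each complex, the paralog groups, and the members below the limit of 0.5 FPKM. From other lists came up to 3 passing genes or the 2 with the highest mean. The members, lists and roles were chosen with earlier results of these data known, and further members are named beyond this rule to describe the complexes. Some genes of the study are not reported here.

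Depth was estimated from FPKM below 0.15 in genes of 1 transcript and at least 1500 exon bases, less 150 bases, each read as 1 fragment. Coordinates and exon overlaps are from GENCODE M21 (GRCm38, the assembly of mm10), in which all 84 members were found by identifier. Alternatives were other pseudocounts, filters, scalings, a length correction, array weights and leaving out each library. Those with control 3 and cKO 3 both left out, and with cKO 1 as the only cKO library, were chosen after seeing the data.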

Additional observations from a re-analysis of the deposited data

How the results depend on the processing

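The median log2 change of the tested members was below 0 in every fit tried, and below that of all genes by 0.088 to 0.273 on the log2 scale. No paired analysis was possible because replicates carry no numbers in the labels. The 1 increase and 2 decreases were unchanged in number with pseudocounts of 0.1 and 0.5, with a mean FPKM of at least 2 and with quantile normalisation, where Ndufb3 stood in place of Cox7a2 (adjusted p = 0.0502). With no filter 0 members rose and 0 fell by limma, 37924 genes shared the adjustment, and 0.105% of them passed. At an unadjusted p below 0.05, 2 members were higher and 21 lower, against 6.31% and 4.28% of all genes. With libraries centred on their median 8 members fell and the members' median was -0.209. With the length trend removed 4 fell, and with array weights 9 fell; members passed then in 6.17% and 12.3%, against 6.15% and 11.9% of all genes. The members' median was -0.085 under quantile normalisation and when rescaled without mitochondrial transcripts. Atp5b passed with libraries centred on their median, with the length trend removed and with array weights. It also passed when libraries were centred on reference genes or rescaled without mitochondrial genome transcripts, and not under quantile normalisation (limma adjusted p = 0.116). Centring on reference genes left 20 members whose groups did not overlap, against 33 as reported. Leaving out 1 library at a time left a group of 2 libraries and gave 0 to 2 increases and 0 to 2 decreases. Neither occurred without control 1, control 2, cKO 1 or cKO 2, where 0.0335%, 0.0134%, 0.0134% and 0.522% of all genes passed. Without overlap were 33 to 52 members (40.7% to 64.2%), against 34.8% to 45.4% of all genes. With control 3 and cKO 3 both left out, 1 member fell, 68 did not overlap (84% of members, 58.2% of all genes) and the median was -0.228. With the 3 controls against cKO 1, 0 members rose, 0 fell and 66 did not overlap (81.5% of members, 70.6% of all genes). The cause of these differences was not tested.

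The sign of some members changed with the processing. Quantile normalisation gave 0.032 for Atp5g1, 0.073 for Atp5l, -0.004 for Atp5sl, 0.032 for Cox6c, 0.006 for Cox7a2l, -0.026 for Ndufa4l2 and 0.035 for Uqcrh. Centring on the median gave -0.052 for Atp5sl, -0.007 for Ndufa4l2, -0.05 for Ndufa7, -0.034 for Ndufb11 and -0.062 for Uqcrc1. Centring on reference genes gave 0.026 for Atp5l, and rescaling without mitochondrial genome transcripts gave 0.049 for Atp5l and 0.004 for Uqcrh. Removing the length trend gave -0.006 for Atp5sl and -0.036 for Uqcrc1, and array weights gave -0.002 for Ndufa7 and -0.018 for Uqcrc1. Without control 3 and cKO 3 the values were -0.076 for Atp5sl, 0.258 for Cox6a2, -0.1 for Ndufa7, -0.014 for Ndufb11, -0.007 for Ndufv1 and -0.108 for Uqcrc1. With cKO 1 as the only cKO library they were -0.008 for Atp5sl, 0.127 for Cox6a2, -0.14 for Ndufa7 and 0.091 for Sdha. Leaving out 1 library at a time gave ranges from -0.143 to 0.01 for Atp5g1, -0.096 to 0.051 for Atp5l, -0.051 to 0.068 for Atp5sl, -0.469 to 0.03 for Cox6a2, -0.143 to 0.02 for Cox7a2l, -0.091 to 0.827 for Cox8b, -0.033 to 0.119 for Ndufa4l2, -0.06 to 0.094 for Ndufa7, -0.024 to 0.077 for Ndufb11, -0.14 to 0.011 for Sdha, -0.079 to 0.08 for Uqcrc1 and -0.108 to 0.001 for Uqcrh. None of these members passed in the reported fit.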
